A study of Mus musculus with 48 samples.

Results

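The protocadherins are adhesion proteins of the cadherin superfamily. The table of 21558 genes held 67 rows whose symbol begins with Pcdh, and all 67 are described here. Of these, 55 belong to the alpha (Pcdha, 13 rows), beta (Pcdhb, 22 rows) and gamma (Pcdhg, 20 rows) clusters, and 12 are protocadherins outside the clusters. The tissue was the hypothalamus of male C57BL/6 mice, and each of the 48 RNA-seq libraries was a pool from 3 mice. There were 8 series of 6 libraries, and the libraries of a series carried the title numbers 1, 5, 9, 13, 17 and 21, whose unit the labels do not give.

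The late series came from mice labelled 3 months old. They were a hind limb unloaded and a free-moving series under noise of 85 dBA with air pressure of 0.9 atm, called noise below, and an unloaded and a free-moving series at 10 dBA and normal pressure, called quiet. The early series came from mice labelled 2 months old, all at 10 dBA and normal pressure. They were 2 unloaded series, called b and a, with identical labels, and 2 free-moving series, likewise b and a. Hind limb unloading, in which the hind limbs are lifted off the floor, is a ground model of weightlessness. No mouse carried a genetic change according to the labels. The louder sound always came with the lower pressure, and each late condition was 1 series, so condition and series cannot be told apart. The design text gives 1 age, 2 months, for all 144 mice, while the late labels give 3 months.

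In the mouse the clustered genes lie in a row on a single chromosome. Each alpha and gamma gene has a large variable first exon with its own promoter, which is spliced to constant exons shared by the whole cluster, whereas each beta gene is a single exon. Most isoforms are switched on in different combinations in single neurons, through DNA looping by the factor Ctcf and cohesin, while the C-type isoforms Pcdhac1, Pcdhac2, Pcdhgc3, Pcdhgc4 and Pcdhgc5 are used more uniformly. The resulting cell surface code takes part in self-recognition of neurites, and gamma proteins support the survival of interneurons. Protocadherins outside the clusters have separate promoters and act in cell sorting, axon growth and synapse remodelling.

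Of the 12 genes outside the clusters, Pcdh9 and Pcdh17 were among those that differed most in the comparisons below, and Pcdh8 among those that differed least. Their RefSeq promoter windows (GRCm38.p6, 250 bases before to 50 bases after the start) are given as examples of start regions. Each is written 5′ to 3′ on the gene's strand. Pcdh9 lies at chr14:93890620-93890919 on the minus strand, Pcdh17 at chr14:84443313-84443612 on the plus strand and Pcdh8 at chr14:79771263-79771562 on the minus strand. Capitals mark each CG dinucleotide.
Pcdh9: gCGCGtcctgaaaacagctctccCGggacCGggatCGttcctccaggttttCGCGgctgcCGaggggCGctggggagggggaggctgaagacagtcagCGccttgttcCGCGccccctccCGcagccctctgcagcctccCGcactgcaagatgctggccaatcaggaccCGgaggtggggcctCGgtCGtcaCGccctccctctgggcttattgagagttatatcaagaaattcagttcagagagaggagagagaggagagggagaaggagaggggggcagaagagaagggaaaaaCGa
Pcdh17: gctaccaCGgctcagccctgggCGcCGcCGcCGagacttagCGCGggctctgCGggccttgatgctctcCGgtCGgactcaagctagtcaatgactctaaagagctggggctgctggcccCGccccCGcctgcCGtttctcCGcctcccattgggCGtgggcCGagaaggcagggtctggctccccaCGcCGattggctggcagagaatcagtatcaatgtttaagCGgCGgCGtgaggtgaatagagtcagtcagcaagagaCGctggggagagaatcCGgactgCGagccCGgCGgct
Pcdh8: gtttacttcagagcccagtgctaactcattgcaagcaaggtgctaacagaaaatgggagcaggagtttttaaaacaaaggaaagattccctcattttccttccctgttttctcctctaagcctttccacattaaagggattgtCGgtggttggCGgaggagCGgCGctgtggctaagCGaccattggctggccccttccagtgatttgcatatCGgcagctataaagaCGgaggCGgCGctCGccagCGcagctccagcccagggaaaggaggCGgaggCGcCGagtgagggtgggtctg
The windows hold 19, 26 and 14 CG dinucleotides in that order. Of all 32851 windows of this length, 28.1%, 16.9% and 36.3% hold at least as many, and the median is 7. Windows were found for 9 of the 12 genes outside the clusters, with a median of 18. Among the others, Pcdh10 (24), Pcdh7 (11) and Pcdh20 (4) were called lower with unloading in the late quiet series. Pcdh18 (23), Pcdh19 (18) and Pcdh15 (8) were not called. A relation of the CG count to the differences was not tested. The count is a description of the sequence and no measure of promoter use.

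The deposited unit is RPKM, reads scaled to gene length and library depth, so levels can be compared between genes. For the shared-exon genes the gene length behind the unit matters. At low values, RPKM was converted with the exon bases not shared with any other gene, which leaves out the constant exons. This gave whole reads (within 0.05 reads) for 72.8% of alpha and 83.7% of gamma values. Converted with the full exon length, 0 of 57 alpha and 0 of 20 gamma values came out whole, where chance gives 10%. Most low alpha and gamma values thus behaved as reads on the variable exons. Only 7 of 35 values of Pcdha4, 3 of 12 of Pcdha6 and 1 of 17 of Pcdha7 came out whole. The check hardly covers the leading genes: Pcdhac2 had 1 low value, which came out whole, and Pcdhgc3 and Pcdhgc4 had 0. The variable exons end 2860 exon bases (Pcdhac2) and 2119 exon bases (Pcdhgc3) before the shared 3′ end. For beta genes, 100% of low values came out whole with the bases not shared with any other gene. Outside the clusters only Pcdh12 had low values, and 0 of its 16 came out whole with either length. The counted length of the other 11 genes was not checked in this way. How reads on overlapping exons were assigned is not given in the sources used here. Pcdhb12 shares 63.5% of its exon bases with another gene model and Pcdha4 93.0%, so their values are uncertain. In the gamma cluster the shared part, constant exons included, was largest for Pcdhga11 (73.6%), Pcdhgc3 (66.9%) and Pcdhga4 (66.8%). Of the 5499 exon bases of Pcdhgc3 1821 were not shared, so the values of these genes are uncertain too. Pcdha11 was listed at 0 in every library and has 2 gene IDs in the annotation used here, and Pcdhga10 and Pcdhgb8 had no row.

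The clustered genes were not equally abundant. Among the alpha genes Pcdhac2, the last of the cluster and required in mouse for the tiling of serotonergic axons, was the highest, with a mean of 1.48 RPKM over all 48 libraries, and Pcdha12 followed with 0.483 RPKM. Pcdhgc3 led the gamma cluster with 7.94 RPKM, ahead of Pcdhgc4, the isoform tied to interneuron survival in mouse, with 3.15 RPKM and Pcdhgc5 with 2.18 RPKM. The leading beta genes were Pcdhb9 with 2.74 RPKM and Pcdhb12 with 2.54 RPKM, and Pcdhb1 was lowest with 0.0328 RPKM. Outside the clusters Pcdh8 (arcadlin in rat, an activity-induced protein that acts on N-cadherin) averaged 12.5 RPKM and Pcdh1 (known from epithelial adhesion) 10.9 RPKM, while Pcdh12, an endothelial gene, averaged 0.0661 RPKM. A mean of at least 0.5 RPKM, the filter for testing, was reached by 46 members, namely 1 alpha, 16 beta, 18 gamma and 11 outside the clusters. Of these 46, Pcdhb11, Pcdhga9, Pcdhgb1 and Pcdhgb5 passed only because of the late free-moving quiet series, so counts over the tested members in comparisons with that series are descriptions.

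Read depth inferred from the RPKM steps was 28.4 to 55.2 M reads per library. At the median depth of 38.1 M reads, Pcdhb9 rested on a median of 324 reads per library. Mitochondrially encoded genes took 8.95% to 62.4% of summed RPKM over the libraries. One library stood apart for the clustered genes: in the early free-moving series a library of number 1, 12 alpha genes that were detected elsewhere were all listed at 0 and summed gamma was 1.88 RPKM. Summed beta in the same library was 20.2 RPKM and the genes outside the clusters summed to 37.7 RPKM, both inside the range of the other libraries of that series. Counts for the comparisons that use this series are given without this library as well.

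**Figure D1:**
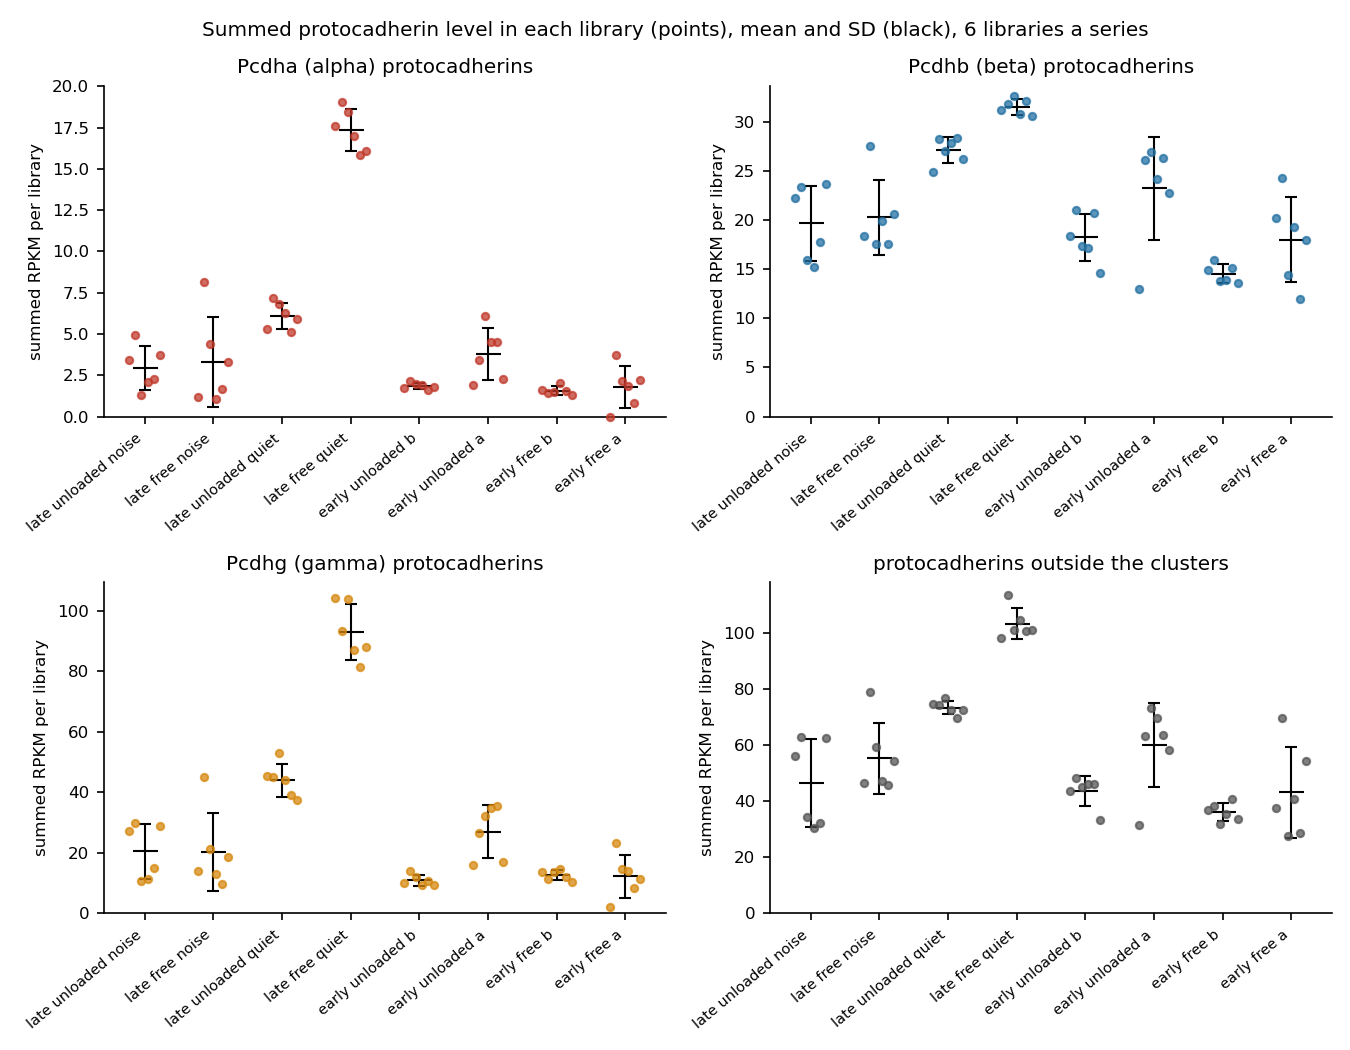
Summed RPKM of the alpha, beta, gamma and non-clustered protocadherins in each library (points), by series on the horizontal axis, with the mean and SD of 6 libraries in black. The late free-moving quiet series lies above every other series in each panel. It spans 15.9 to 19.1 RPKM for alpha, 30.6 to 32.6 for beta, 81.3 to 104 for gamma and 98.1 to 113.7 for non-clustered. The beta panel spans a narrower range, with the highest other library at 28.3 RPKM.

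Across the 8 series the late free-moving quiet libraries had the highest protocadherin levels. Its mean was the highest of the 8 series for 63 of 67 members, compared with 32.5% of all genes in the table. Every one of its 6 libraries exceeded all 42 other libraries for 18 of 20 gamma, 6 of 13 alpha, 6 of 12 non-clustered and 1 of 22 beta members, where 6.62% of all genes did so. The exceptions to the highest mean were Pcdhb12, Pcdh15 (the tip-link protein of hair cells), Pcdh12 and Pcdha11. The late unloaded quiet series had the second highest mean for 60 of the 67.

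Expression by class showed how the mixture shifted. Gamma genes made up 56.9 ± 3.03% of summed clustered RPKM in late unloaded quiet libraries and 65.5 ± 1.86% in late free-moving quiet libraries (SD, n = 6 each). Alpha genes made up 7.88 ± 0.760% and 12.2 ± 0.600% in the same order. Beta genes made up 35.3 ± 2.90% in late unloaded quiet libraries and 22.3 ± 1.56% in late free-moving quiet ones, the lowest beta share of any series. In the early series beta genes made up 43.7% to 59.0% on average. The ratio of summed clustered to summed non-clustered RPKM was 0.963 to 1.13 in late unloaded quiet libraries and 1.27 to 1.56 in late free-moving quiet libraries, with no overlap.

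Unloading was compared in the late quiet series, where 6 unloaded libraries were set against 6 free-moving ones. Alpha and gamma protocadherins were lower in the unloaded libraries and beta genes less so. Summed alpha RPKM was 5.13 at the lowest, 6.09 in the median and 7.16 at the highest in unloaded libraries, against 15.9, 17.3 and 19.1 in free-moving ones. Summed gamma RPKM was 37.5, 44.6 and 52.9 in unloaded libraries, against 81.3, 90.7 and 104 in free-moving ones. The ranges do not overlap, and the ratio of means was 2.85-fold lower for alpha and 2.11-fold lower for gamma. Summed beta RPKM was 24.9, 27.4 and 28.3 in unloaded libraries, against 30.6, 31.5 and 32.6 in free-moving libraries, 1.16-fold lower in the mean and also without overlap. The genes outside the clusters summed to 69.8, 73.4 and 76.7 RPKM in unloaded libraries, against 98.1, 101.2 and 113.7 RPKM in free-moving libraries, a 1.41-fold lower mean.

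Differences were tested with limma on log2(RPKM + 0.5) over 13685 genes, with a gene called at a Benjamini-Hochberg adjusted p below 0.05 over all of them. Shares of all genes called belong to this fit. Counts of members under other settings are given without such a share. Of the 46 members tested, 21 were called lower in unloaded libraries and 0 higher, where 3.38% of all genes tested were called lower. By class these were Pcdhac2, 15 of 18 gamma genes, 0 of 16 beta genes and 5 of 11 genes outside the clusters. The median log2 difference was −0.96 for gamma, −0.15 for beta and −0.43 for the genes outside the clusters, beside 0.018 for all genes. At an unadjusted p below 0.05 limma gave 3 of the 16 beta genes, beside 3805 of all 13685 genes. Counted over all 67 members without a filter, the unloaded range lay wholly below the free-moving range for 9 of 13 alpha, 18 of 20 gamma, 2 of 22 beta and 6 of 12 non-clustered members, against 8.51% of all genes in the table. The 2 beta genes were Pcdhb2 and Pcdhb18. Fewer cells that express a gene and less RNA per cell cannot be told apart in these tissue pools.

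Pcdhac2 was at 1.53, 1.79 and 2.13 RPKM (lowest, median, highest) in unloaded libraries, against 5.52, 6.19 and 7.46 RPKM in free-moving ones. All 6 unloaded libraries lie far below all 6 free-moving ones. Its difference was −1.55 ± 0.21 on the log2 scale (SE, limma adjusted p = 4.58e-06), lower at 6 of 6 title numbers. Pcdhgc4 was at 3.37, 4.31 and 5.07 RPKM in unloaded libraries, against 8.90, 11.4 and 13.1 RPKM in free-moving ones. It fell by 1.31 ± 0.25 (SE, adjusted p = 0.000407), again without overlap. The most abundant gamma gene, Pcdhgc3, whose protein binds Axin1, was at 8.67, 12.6 and 16.7 RPKM in unloaded libraries, against 21.4, 23.6 and 27.7 RPKM in free-moving ones. Although its ranges do not overlap, its difference of −0.97 ± 0.34 gave an adjusted p of 0.0527, above the threshold. Without the early free-moving series a library of number 1, in which this gene was at 0, the same difference had an adjusted p of 0.00760.

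Of the variable gamma isoforms tested, Pcdhga11 alone was not called. Pcdhga7 averaged 1.58 ± 0.267 RPKM in unloaded libraries and 4.03 ± 0.614 RPKM in free-moving libraries (SD, n = 6 each), a log2 difference of −1.12 (adjusted p = 0.000397). Pcdhga6, Pcdhga2 and Pcdhga3 differed by −1.08, −1.07 and −1.04 (limma adjusted p = 0.000200, 6.44e-05 and 0.000214). The 3 tested gamma genes that were not called were Pcdhgc3, Pcdhga11 (−0.70) and Pcdhgc5 (−0.69, adjusted p = 0.0664). Among alpha genes under the filter, Pcdha9 averaged 0.566 RPKM in unloaded libraries and 1.71 RPKM in free-moving ones, and Pcdha12 had a median of 0.553 RPKM in unloaded and 1.61 RPKM in free-moving libraries. Fitted without the filter, 12 alpha members differed by −1.55 to −0.04 on the log2 scale (median −0.83), 22 beta members by −0.59 to 0.23 and 20 gamma members by −1.31 to −0.51. On this scale, with 0.5 added, the gamma and beta ranges overlap at their edges only, at Pcdhb2 (−0.59) among beta genes. As ratios of mean RPKM, Pcdhb1 (3.34-fold lower) and Pcdhb2 (3.035-fold) exceeded every gamma gene, the largest being Pcdhgc4 (2.66-fold). These 2 beta genes had a median of 0 and 12 reads per library. The remaining beta genes were at most 1.65-fold lower (Pcdhb21). Pcdhb2 is a low beta gene, at 0.171 RPKM in unloaded and 0.519 RPKM in free-moving libraries.

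The 2 highest beta genes and the 2 highest genes outside the clusters were not called. Pcdhb9 was at 2.64, 3.40 and 3.72 RPKM in unloaded libraries, against 2.87, 3.77 and 4.39 RPKM in free-moving ones. These ranges overlap, and the difference of −0.13 ± 0.14 was not called (95% interval −0.41 to 0.16). Pcdhb12 differed by 0.23 (interval −0.19 to 0.64). Pcdh8 was at 14.7, 16.2 and 18.3 RPKM in unloaded libraries, against 13.4, 18.0 and 19.4 RPKM in free-moving ones, a difference of −0.07 (interval −0.44 to 0.31). Pcdh1 differed by −0.24 (interval −0.62 to 0.14).

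The 5 called genes outside the clusters were Pcdh9, Pcdh17, Pcdh20, Pcdh7 and Pcdh10. Pcdh9 was at 5.51, 8.31 and 9.87 RPKM in unloaded libraries, against 10.3, 14.5 and 19.0 RPKM in free-moving ones. Its difference was −0.84 ± 0.17 (adjusted p = 0.00133), and the ranges do not overlap. Pcdh17, which acts at corticostriatal presynapses in mouse, averaged 7.97 ± 0.702 RPKM in unloaded libraries and 13.7 ± 1.41 RPKM in free-moving libraries, a difference of −0.74 (adjusted p = 0.00712). Pcdh20, Pcdh7 and Pcdh10 fell by 0.71, 0.70 and 0.62 (limma adjusted p = 0.00301, 0.00776 and 0.00604). Pcdh10 takes part in synapse elimination in mouse neurons. Pcdh19, the gene of an X-linked epilepsy, differed by −0.43 and was not called (adjusted p = 0.126), although its ranges did not overlap.

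**Figure D2:**
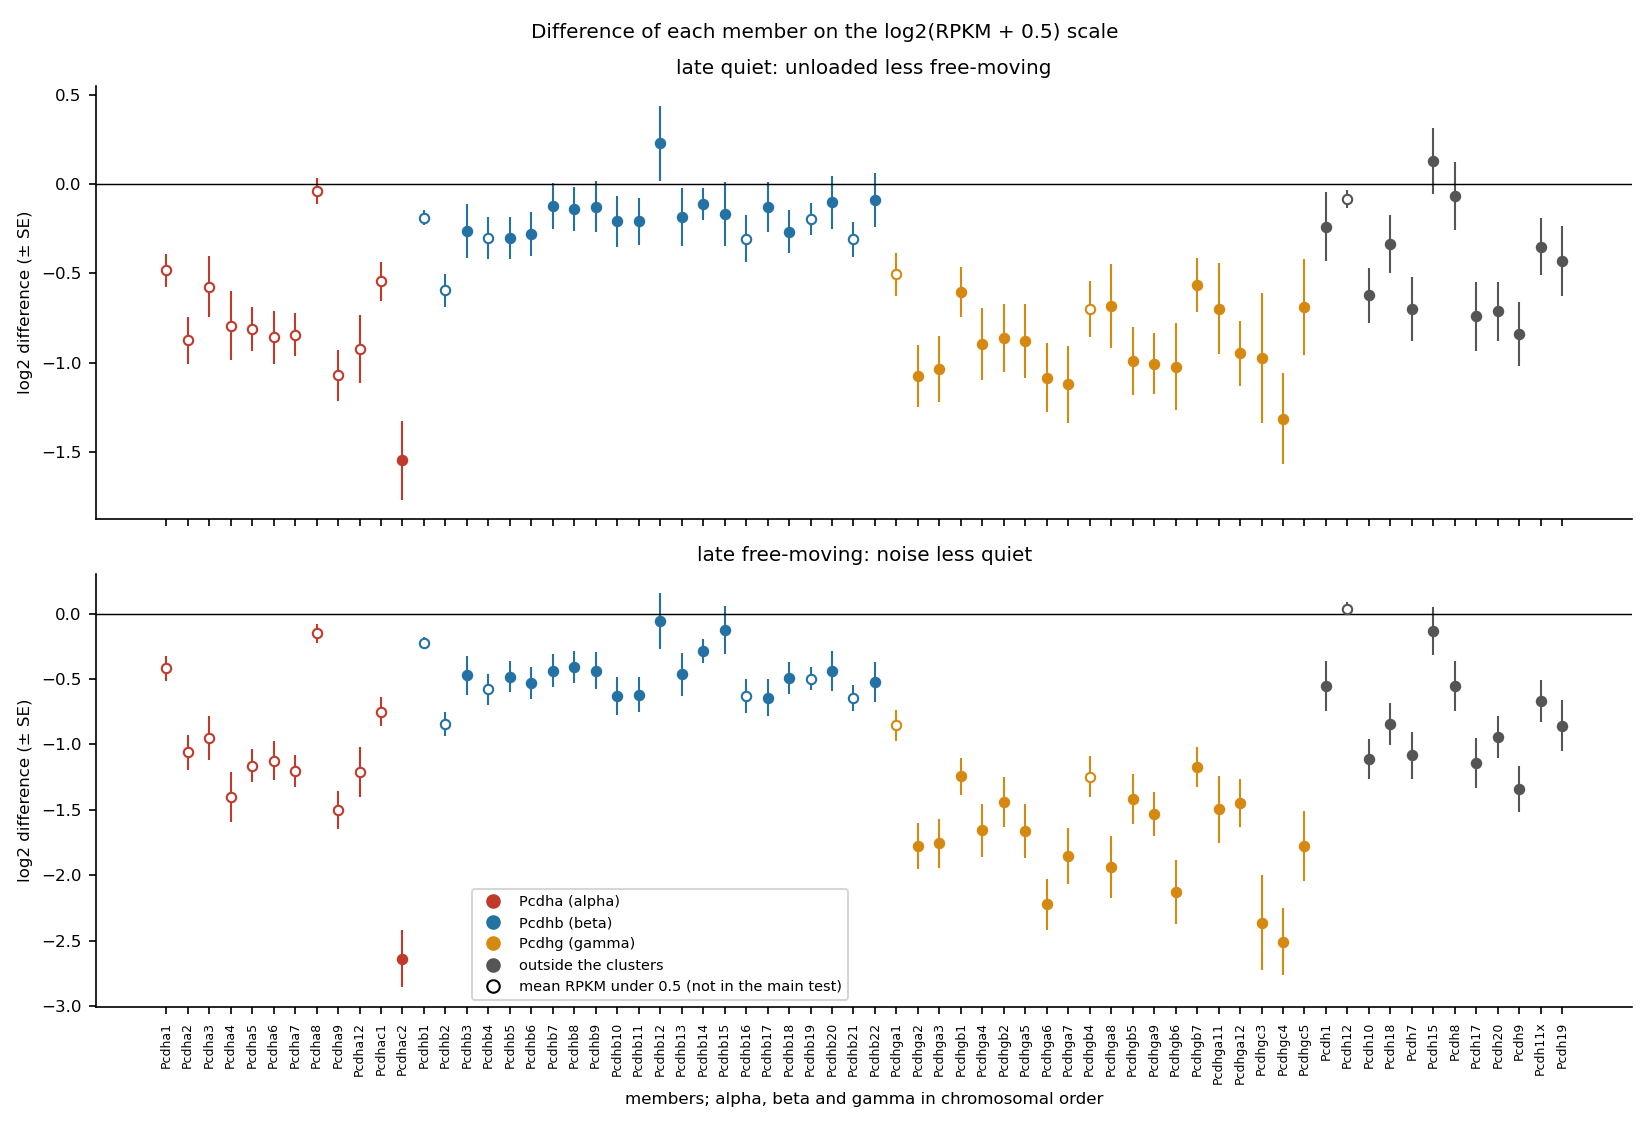
Log2 difference (± SE) of each of 66 members on the log2(RPKM + 0.5) scale, unloaded less free-moving in the late quiet series above and noise less quiet in the late free-moving series below, with clustered genes in chromosomal order. The gamma genes lie well below 0 in both panels (−1.31 to −0.51 above). The alpha genes run from −1.55 to −0.04 above (median −0.83) and from −2.635 to −0.15 below (median −1.14). The beta genes, between them along the chromosome, run from −0.59 to 0.23 above (median −0.19) and from −0.84 to −0.06 below (median −0.49). Open points had a mean under 0.5 RPKM and Pcdha11, at 0 throughout, is left out.

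The position of the classes along chromosome 18 was set beside the differences. On GRCm38 the alpha genes start with Pcdha1 at base 36930184 of chromosome 18. The beta genes run from Pcdhb1 (start 37264938) to Pcdhb22 (end 37524479), and the gamma genes end with Pcdhgc5 at base 37841873. The beta genes, with a median unloading difference of −0.19, thus lie between the alpha (−0.83) and gamma (−0.92) genes. Within a cluster the rank correlation of the unloading difference with position was −0.39 for 12 alpha, 0.31 for 22 beta and −0.06 for 20 gamma genes. These points share libraries and, within alpha and gamma, exons.

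Other quantities moved with the same pair of series. The mitochondrial share was 14.0 ± 1.32% in late unloaded quiet libraries and 11.5 ± 1.68% in late free-moving quiet libraries (SD, n = 6 each). With this share as a covariate in limma, 25 members were called lower, among them all 18 gamma genes tested and 0 beta genes. Over all other genes the median unloading difference fell with exon length, to −0.16 for 1816 genes with over 9000 exon bases, from 0.24 for 1786 genes up to 2000 bases. The gamma median of −0.96 and Pcdhac2 at −1.55 lie below each of these medians. Of the 10 endothelial markers 3 rose (Ly6c1, Esam and Cldn5), where 1283 of 13685 genes were called higher, and the marker list summed to 110.3 to 147.6 RPKM in unloaded libraries and 75.3 to 112.6 RPKM in free-moving libraries. The 10 ependymal and tanycyte markers summed to 108.9 to 121.1 RPKM in unloaded libraries and 85.5 to 100.9 RPKM in free-moving ones, and none was called. The 10 neuron markers overlapped (1592 to 1819 RPKM in unloaded and 1593 to 1925 RPKM in free-moving libraries), with 0 called. Of 14 hypothalamus markers 3 rose (Agrp, Avp and Crh), with sums of 2465 to 3933 RPKM in unloaded and 1651 to 2714 RPKM in free-moving libraries. Of 10 astrocyte markers Aqp4 fell (−0.58, limma adjusted p = 0.0184). The part of these quantities in the protocadherin differences was not tested.

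**Figure D3:**
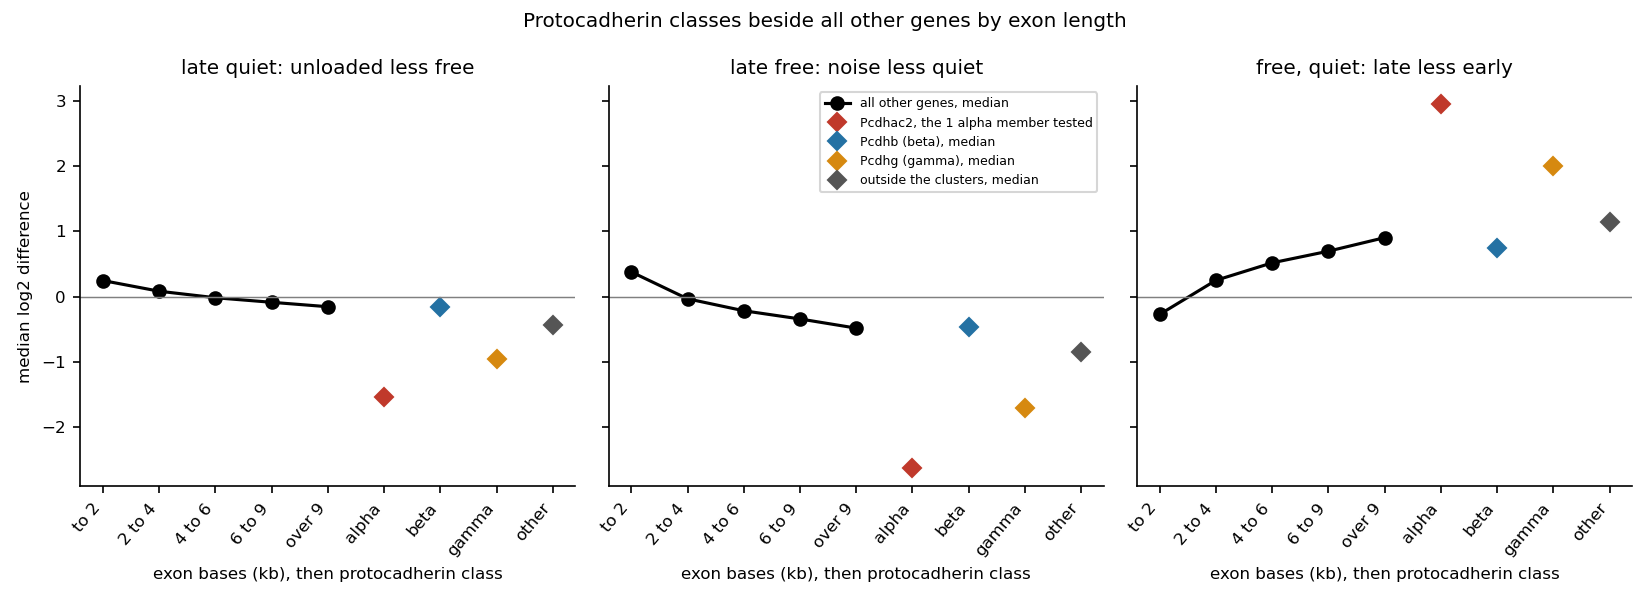
Median log2 difference of all other tested genes by exon length (black, left of each panel) beside the medians of the protocadherin classes (diamonds, where alpha is Pcdhac2 alone), for 3 comparisons. The gamma median (−0.96, −1.71 and 2.00) lies outside the range of the 5 length medians in each panel. The beta median (−0.15, −0.47 and 0.75) lies within it only through the genes over 9000 bases (−0.157, −0.486 and 0.904). No beta gene is that long, the longest being Pcdhb14 with 8695 exon bases. Other genes of 2000 to 4000 bases had medians of 0.081, −0.035 and 0.248, and those of 4000 to 6000 bases −0.019, −0.219 and 0.517.

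Genes of the machinery that selects and joins clustered promoters were examined in the late quiet pair, where 3.38% of all genes tested were called lower and 1283 of 13685 higher. Of 15 tested genes for looping, chromatin and DNA methylation, Stag2, a cohesin subunit, was called lower (−0.46, limma adjusted p = 0.00567) and none higher. Ctcf, Rad21 and the others were not called. Of 16 genes for protocadherin effectors, 2 fell, namely Cyfip1 (−0.48, limma adjusted p = 0.00216) and Nckap1 (−0.44, adjusted p = 0.0195). Both belong to the Wave regulatory complex that binds protocadherin tails. Cyfip2, Abi1, Abi2, Brk1 and Wasf1 of the same complex were in the list and were not called. Of 27 other cadherin superfamily genes 2 fell (Cdh8 by 0.59 and Cdh11 by 0.48) and Celsr3 rose by 0.69. The medians of the 3 lists were −0.25, −0.14 and −0.21, so each was closer to 0 than the gamma median.

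**Figure D4:**
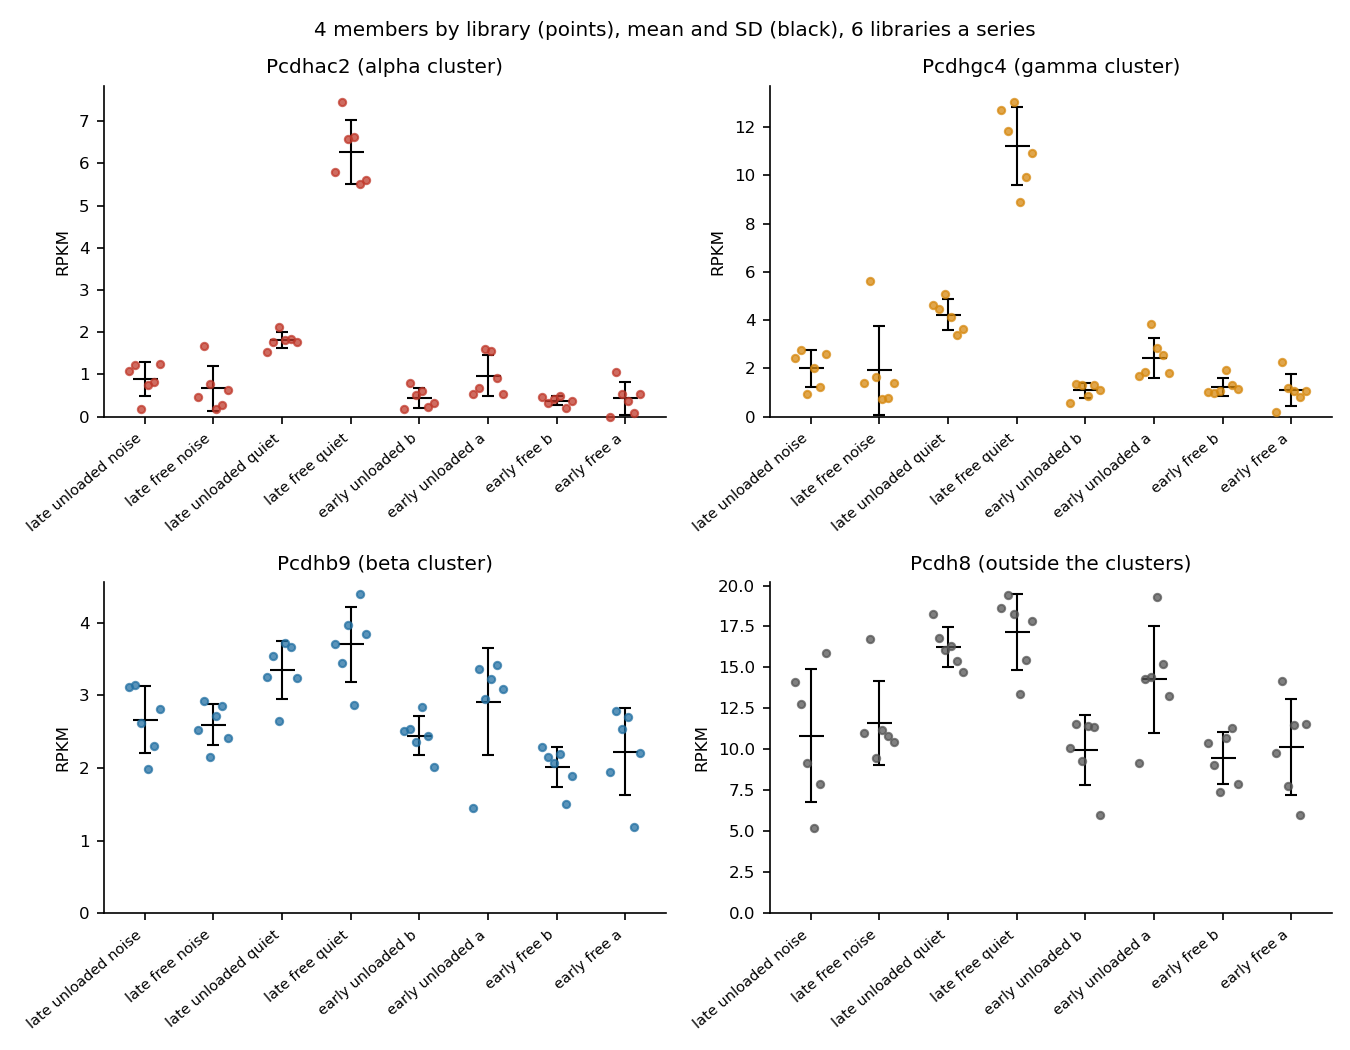
RPKM of Pcdhac2, Pcdhgc4, Pcdhb9 and Pcdh8 in each library (points) by series, with mean and SD of 6 libraries in black. Pcdhac2 and Pcdhgc4 are highest in late free-moving quiet libraries without overlap with any other series, while Pcdhb9 and Pcdh8 overlap between series.

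The free-moving series under noise was compared with the same late free-moving quiet series, so this comparison and the one above share their control libraries. Protocadherins were lower under noise in nearly every class. Of 46 tested members 43 were called lower and 0 higher, where 36.4% of all genes tested were called lower. The 43 were Pcdhac2, 18 of 18 gamma, 14 of 16 beta and 10 of 11 non-clustered genes, and Pcdhb12, Pcdhb15 and Pcdh15 were not called. The median difference was −1.71 for gamma, −0.47 for beta and −0.86 for the genes outside the clusters, beside −0.15 for all genes. The noise range lay wholly below the quiet range for 20 of 20 gamma, 7 of 13 alpha, 9 of 22 beta and 6 of 12 non-clustered members, where 13% of all genes in the table did so.

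Summed gamma RPKM was 9.58, 16.1 and 45.0 (lowest, median, highest) under noise, against 81.3, 90.7 and 104 in quiet. The noise library of number 5, with the lowest mitochondrial share of its series (15.1%), held the 45.0, and the next was 21.2. Pcdhac2 was at 0.185, 0.543 and 1.68 RPKM under noise, against 5.52, 6.19 and 7.46 RPKM in quiet, a log2 difference of −2.64 ± 0.21 (SE, adjusted p = 2.47e-12). Pcdhgc4 fell by 2.51, Pcdhgc3 by 2.36, Pcdhga6 by 2.22, Pcdhgb6 by 2.13 and Pcdhga8 by 1.94 (all 6 of 6 title numbers). Pcdhb9 averaged 2.60 RPKM under noise and 3.70 RPKM in quiet, a difference of −0.44 (adjusted p = 0.00828). Outside the clusters Pcdh9 fell by 1.34, Pcdh17 by 1.14, Pcdh10 by 1.11 and Pcdh8 by 0.56 (adjusted p of Pcdh8 0.00991). With the mitochondrial share as a covariate 30 members were lower and 1 higher, the differences of Pcdh8 and Pcdh1 became 0.006 and 0.06 and were not called, and all 18 gamma genes tested were still lower.

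The other lists moved in the same comparison, where 36.4% of all genes tested were called lower. Of the genes for promoter choice and looping 10 of 15 fell (Rad21, Smc1a and Wapl by 0.71, 0.63 and 0.68), as did 10 of 16 effectors and 16 of 27 other cadherins, among them Cdh8 (−1.23) and Cdh2, N-cadherin (−1.04). Of the neuron markers 8 of 10 fell, and of the ependymal and tanycyte markers 7 of 10 rose, where 2897 of 13685 genes were called higher. List medians were −0.46, −0.47, −0.58, −0.57 and 0.66 in that order. Of the astrocyte markers 7 of 10 fell and 2 rose, and of the thalamus markers 4 of 8 fell and 1 rose. Mural and fibroblast markers rose for 5 of 10 and fell for 0, and hypothalamus markers rose for 6 of 14 and fell for 1. Their part in the protocadherin differences was not tested.

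Noise was also set against quiet in the unloaded animals, a comparison that uses neither free-moving series. Here 38 of 46 members were called lower and 0 higher, where 45.6% of all genes tested were called lower. They comprised Pcdhac2, 17 of 18 gamma, 10 of 16 beta and 10 of 11 non-clustered genes. Medians were −0.72 for gamma, −0.38 for beta and −0.65 for genes outside the clusters, beside −0.28 for all genes. The range under noise lay wholly below that in quiet for 10 of 20 gamma and 21 of all 67 members, against 7.38% of all genes. Pcdhgc3 was at 2.18, 4.99 and 8.50 RPKM under noise, against 8.67, 12.6 and 16.7 RPKM in quiet, without overlap of the ranges. It fell by 1.34 ± 0.34 (adjusted p = 0.00367). Pcdhga8, Pcdhgc5 and Pcdhga4 fell by 1.16, 1.05 and 1.01, and Pcdh19 and Pcdh9 by 0.77 and 0.76. The count was 25 without number 9 and 20 without number 13. Neuron markers fell for 9 of 10, and genes for promoter choice and looping for 11 of 15.

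The mitochondrial share varied within the unloaded noise series, and the summed gamma RPKM with it. Numbers 5, 21 and 1 had shares of 10.5%, 16.0% and 31.0% and summed gamma of 29.9, 29.0 and 27.0 RPKM. Numbers 9, 13 and 17 had shares of 46.9%, 50.04% and 47.4% and summed gamma of 10.5, 11.4 and 14.9 RPKM. With the share as a covariate 0 of the 38 calls were left at an adjusted p below 0.05. In the plot of level against share, the late free-moving quiet libraries (shares 8.95% to 13.5%) had gamma sums of 81.3 to 104 RPKM. The 4 early unloaded series a libraries with shares of 11.2% to 16.4% had 26.6 to 35.5 RPKM, and the late unloaded quiet libraries (12.7% to 16.6%) had 37.5 to 52.9 RPKM.

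**Figure D5:**
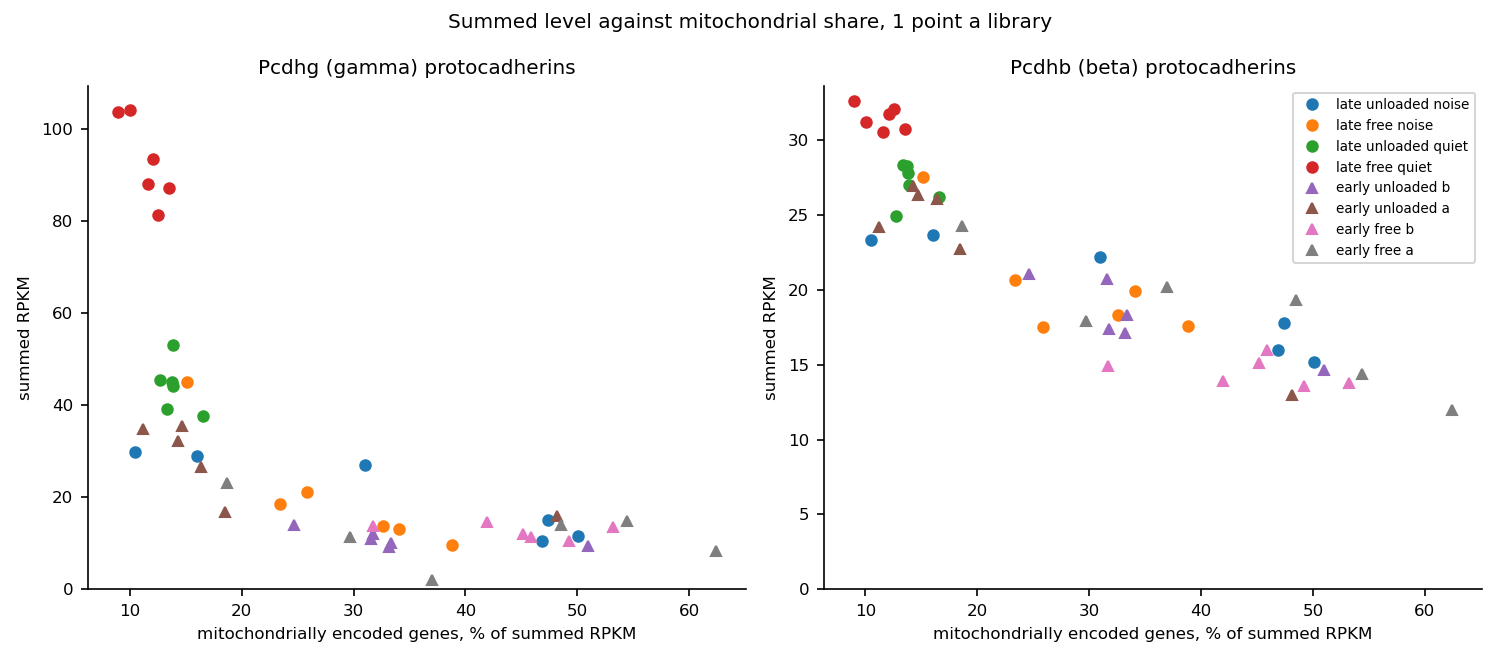
Summed RPKM of gamma (left) and beta (right) protocadherins against the percentage of summed RPKM on mitochondrially encoded genes, 1 point a library, coloured by series. Late free-moving quiet libraries (gamma 81.3 to 104 RPKM) lie above other libraries of like share on the left.

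Unloaded and free-moving animals were also compared under noise, where neither series is the high one. None of the 46 members was called by limma, where 0.0146% of all genes were called. At an unadjusted p below 0.05 there were 3 members (Pcdhb14, Pcdhb18 and Pcdh7), beside 855 of 13685 genes, a like share. Summed gamma was 20.5 ± 9.12 RPKM in unloaded noise libraries and 20.2 ± 12.9 RPKM in free-moving noise libraries (SD, n = 6 each). The intervals are wide: Pcdhgc4 differed by 0.23 (95% interval −0.27 to 0.73) and Pcdhac2 by 0.29 (−0.14 to 0.72). The difference between the 2 unloading effects was tested as an interaction. It was called positive for 11 members and negative for 0, where 0.482% of all genes were called positive. The 11 were Pcdhac2 (1.84 ± 0.30, adjusted p = 0.000241) and 10 gamma genes, among them Pcdhgc4 (1.54, adjusted p = 0.00718) and Pcdhga6 (1.26, adjusted p = 0.00527). None of the 16 beta or 11 non-clustered genes was called, and Pcdhgc3 had 1.02 with an adjusted p of 0.238. This count rests on single title numbers: it was 2 without number 17 or number 21, 3 without number 13 and 5 without number 1, and 3 at a pseudocount of 0.1.

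In the early series both unloaded series were set against both free-moving series. Of 46 members 23 were called higher and 0 lower, a share close to the 50.9% of all genes called higher. The called genes were Pcdhac2, 6 gamma, 8 beta and 8 non-clustered members, with Pcdhgc3 at 0.60 ± 0.24 (adjusted p = 0.0357) and Pcdh10 at 0.45 ± 0.11 (adjusted p = 0.00433). Pcdhb13 rose by 0.41 and Pcdh17 by 0.47. Summed gamma was 9.19, 14.8 and 35.5 RPKM in the 12 unloaded libraries, against 1.88, 12.8 and 23.1 RPKM in the 12 free-moving ones, which overlap. The mitochondrial share was 27.4 ± 13.1% in unloaded and 43.1 ± 12.2% in free-moving libraries (SD, n = 12 each), and with it as a covariate 0 members were called. The calls also depended on libraries, with 0 left without number 9 or number 17 and 9 without number 13. Without the early free-moving series a library of number 1 the count was 18. For unloaded series b less free-moving series b alone, Pcdhgc3 and Pcdhgc4 differed by −0.25 and −0.13 and were not called, so their direction turned.

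Series b and a carry the same labels, and they were compared as a measure of the spread between series. Between the early unloaded series b and a, 4 members were called lower in b, all gamma genes, where 0.402% of all genes were called lower. They were Pcdhgc5 (−1.02), Pcdhgb6 (−1.01), Pcdhga4 (−0.97) and Pcdhgb7 (−0.63), with adjusted p of 0.0467, 0.0424, 0.0329 and 0.0466. Summed gamma was 9.19, 10.4 and 13.9 RPKM in b, against 15.8, 29.4 and 35.5 RPKM in a, without overlap. The ratio of these means was larger than the 2.11-fold of unloading in late quiet animals, also a comparison of single series. The mitochondrial share was 34.3 ± 8.80% in b and 20.5 ± 13.7% in a, and with it as a covariate 0 were called. The count was 34 without number 1 and 0 without each of the other numbers, with no share of all genes set beside these counts. Between the early free-moving series b and a no member was called by limma, also without the library of number 1 of series a, where 0.256% of all genes were called. At an unadjusted p below 0.05 there were 5 of 46 members, beside 2099 of 13685 genes.

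Late quiet animals were compared with early ones, which differ in period, age and series at once. In free-moving animals 45 of 46 members were called higher in the late series and 0 lower, where 60.5% of all genes were called higher. Pcdhb12 (0.04, interval −0.32 to 0.40) was the exception, and under quantile normalization it was lower in the late series (−0.43, limma adjusted p = 0.0160). The median was 2.00 for gamma, 0.75 for beta and 1.15 for the genes outside the clusters, beside 0.43 for all genes. Pcdhac2 was at 5.52, 6.19 and 7.46 RPKM in the 6 late libraries, against 0, 0.396 and 1.06 RPKM in the 12 early libraries. It rose by 2.96 ± 0.18 (adjusted p = 2.20e-16), Pcdhgc3 by 2.92, Pcdhgc4 by 2.87, Pcdh9 by 1.96 and Pcdh17 by 1.72. Pcdh8 averaged 17.2 RPKM in late libraries and 9.79 RPKM in early ones, a rise of 0.80. The mitochondrial share was 8.95% to 13.5% in late libraries and 18.7% to 62.4% in early ones. With it as a covariate 32 members were called and the difference of Pcdh8 turned to −0.10 and was not called (adjusted p = 0.597). The count was again 45 without the early free-moving series a library of number 1. All 15 tested genes for promoter choice and looping rose too, with a median of 0.77 (Wapl 1.14, Smc1a 0.99 and Rad21 0.97), as did 9 of 10 neuron markers.

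In unloaded animals the late to early step was smaller. Of 46 members 38 were called higher and 0 lower, where 38.8% of all genes were called higher. Gamma genes had a median of 0.86, beta genes 0.28 and genes outside the clusters 0.51, beside 0.21 for all genes. Pcdhgc3 averaged 12.3 RPKM in late and 5.15 RPKM in early libraries, a rise of 1.34 (adjusted p = 0.00104), and Pcdhac2 rose by 1.02. Against series a alone 2 members were called, and against series b alone 41. The interaction of unloading with period was called negative for 34 members and positive for 0, where 25.6% of all genes were called negative. It took in Pcdhac2 (−1.93), 18 of 18 gamma genes (median −1.23), 6 of 16 beta genes (median −0.38) and 9 of 11 genes outside the clusters (median −0.76), beside −0.22 for all genes. The count was again 34 without the early free-moving series a library of number 1. The late free-moving quiet series enters both interactions and 3 of the other comparisons.

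The title number was tested over all series with an F test in limma. One member, Pcdh9, was called (adjusted p = 0.0420), where 0.877% of all genes were called. Pcdh9 averaged 4.37 RPKM at number 1, 7.29 at 5, 6.29 at 9, 6.51 at 13, 6.57 at 17 and 6.51 RPKM at 21 over the 8 series, so number 1 was the lowest. The spread between the highest and lowest fitted number was 0.77 on the log2 scale. The next smallest p-values belonged to Pcdh7 (adjusted p = 0.203), Pcdh18, Pcdhgb1, Pcdh17 and Pcdhb17. A sine and cosine with a period of 24 called 0 members, and the call of Pcdh9 was lost without number 1, 5, 13, 17 or 21.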

How the data were processed

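Total RNA of pooled hypothalamus (48 libraries) had been sequenced, and the authors deposited 1 table of RPKM values for 21558 genes and 48 libraries. The submitters' processing notes name CASAVA 1.8 and HISAT. For the counter, genome build and annotation the entry is: not given in the sources used here. Libraries were grouped by the sample labels, and 0 columns were left out. Members were all symbols that begin with Pcdh. The members and gene lists were chosen with earlier results of these data known.

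Positions and exon lengths came from GENCODE M21 (GRCm38), matched by symbol. Depth was inferred from the steps of low RPKM values, of which 62.8% to 68.5% were whole reads within 0.02 reads against 4% by chance. The steps did not give whole reads for nearly all values, so no count test was run. Differences were fitted with limma 3.58.1 (R 4.3.3) on log2(RPKM + 0.5) for 13685 genes with a mean of at least 0.5 RPKM, with series and title number as terms, an intensity trend and 35 residual degrees of freedom. Tests were two-sided, with p-values adjusted after Benjamini and Hochberg across the 13685 genes. Fold changes on this scale understate the change of low genes. The step was tested on simulated data. Named genes were drawn from those chosen by a rule, namely up to 6 clustered and 6 other called members of largest change in a comparison, the 2 highest genes of each class, the 6 of smallest p for the title number, and up to 3 called genes of each list. Genes named for a range, an exception or a count were chosen after their values were seen. P-values measure the spread between pools within series, as 1 estimate for each gene from the fit of all 48 libraries. Series outside a comparison thus enter its p-values. The labels do not say that pools came from separate housing groups.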

Additional observations from a re-analysis of the deposited data

Results flagged for a closer look

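Among 96 sets of 6 libraries (summed alpha, beta, gamma and non-clustered RPKM and 8 members, in 8 series), 14 held a library far from the other 5 by Dixon's gap, where chance flags about 1 in 20. They come mostly from 3 libraries. The late free-moving noise library of number 5 was highest in summed beta (27.5 RPKM) and gamma (45.0), Pcdhgc3 (12.2), Pcdhgc4 (5.60) and Pcdh8 (16.7). It has the lowest mitochondrial share of its series (15.1%). The early unloaded series a library of number 1, with the highest share of its series (48.2%), was lowest in summed beta (12.99), summed non-clustered RPKM (31.4), Pcdhb9 (1.45) and Pcdh1 (7.21). The early unloaded series b library of number 21 was lowest in summed non-clustered RPKM (33.2) and Pcdh1 (5.74). Single flags were Pcdha12 at 0.384 RPKM in early free-moving series b number 1, Pcdhgc4 at 1.94 RPKM in early free-moving series b number 13, and Pcdh1 at 15.9 RPKM in late unloaded quiet number 1. The part of the mitochondrial share in these values was not tested.

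The difference made by unloading itself differed between noise and quiet in the late series for 11 members, all alpha or gamma, by the interaction test in limma. It differed between the late and early quiet series for 34 members. Both interactions use the late free-moving quiet series.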

How the results depend on the processing

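Counts of members called, out of 46, depended on the settings as follows. The share of all genes called under each setting is not given beside them, so these counts do not set protocadherins apart from other genes. Without the low-value filter (66 members) the counts were 35 for unloading in late quiet animals, 0 between early unloaded series b and a, 17 for the noise interaction, 52 for the period interaction and 0 for the title number. Fitting only the series compared gave 32 for unloading in late quiet animals and 9 between early unloaded b and a. A pseudocount of 0.1 gave 3 for the noise interaction and 1 between early unloaded b and a. Quantile normalization gave 2 for early unloading and 13 between early unloaded b and a, and rescaling to the non-mitochondrial sum gave 7 and 11. With the mitochondrial share as covariate the counts were 0 for early unloading, 0 for noise in unloaded animals, 19 for late against early unloaded, 0 between early unloaded b and a, 17 for the noise interaction and 18 for the period interaction. Leaving out the early free-moving series a library of number 1, chosen after seeing the data, gave 10 between early unloaded b and a and 0 for the title number. Early unloading came to 37 for series a less free-moving b, 0 for b less a and 0 for b less b. Late against early unloaded came to 2 against series a alone. A sine and cosine gave 0 for the title number. Leaving out 1 title number at a time gave 0 to 29 for early unloading, 18 to 23 for unloading in late quiet animals, 20 to 40 for noise in unloaded animals, 0 to 34 between early unloaded b and a, 2 to 11 for the noise interaction and 0 to 1 for the title number. Gamma genes called lower in late unloaded quiet animals were 12 to 18 of 18 over the filtered settings. The title number was a term of the main fit, which matches libraries of 1 number across series. The labels name no shared batch, and correlations between libraries of 1 number ran from −0.525 to 0.787. Their median r was 0.08 (168 pairs), against −0.017 (840 pairs) for libraries of different numbers, and 21 of 48 libraries were closest to their own number, a hint from the data and not the design. With no replicate block the count between early unloaded b and a was 0, early unloading 19, unloading in late quiet animals 21 and the noise interaction 10. Single members changed sign under a setting in 7 cases, 4 of them with the mitochondrial share as covariate. The causes were not tested. Few reads limit the low members: Pcdhb2 had a median of 12 reads per library, Pcdha12 21 and Pcdhac2 81.9.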
